A study of Helianthus annuus with 24 samples.

Results

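Gibberellins are plant hormones that drive stem growth, germination and flower development. They are made from ent-kaurene, which kaurene synthase forms in the plastid. Kaurene oxidase and then kaurenoic acid oxidase (KAO), a cytochrome P450, turn ent-kaurene into the first gibberellin. In the cytosol, 20-oxidases and 3-oxidases make the active forms, and 2-oxidases (GA2OX) inactivate them. The GID1 receptors bind active gibberellin and bring about the breakdown of DELLA proteins, which otherwise restrain the response. GASA peptides are small cysteine-rich proteins whose genes were first known for responding to gibberellin. In Arabidopsis flowers gibberellin acts in stamen growth upstream of jasmonate, and jasmonate is a known regulator of nectar secretion.

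The contigs described here are the 8 of 42063 assembled sunflower (Helianthus annuus) contigs that met one of 3 conditions. Of these, 4 had the Arabidopsis best match GA2OX1 (AT1G78440) or GA2OX2 (AT1G30040), 2 others had a match described with the word gibberellin, and 2 had a match described as a cytochrome P450 of family 88. They carry 5 distinct matches, and the contigs are named by their match below without a statement that they are its ortholog. The P450 pair, Helianthus20665 and Helianthus20666, matches KAO1 (AT1G05160), a synthesis gene. The 4 oxidase contigs, Helianthus10714 and Helianthus10716 for GA2OX1 and Helianthus39670 and Helianthus39671 for GA2OX2, match breakdown genes. The remaining contigs, Helianthus432 and Helianthus38138, match the peptide genes GASA14 (AT5G14920) and GASA6 (AT1G74670), which neither make nor break down gibberellin. Of the Arabidopsis genes in a list of the pathway, 2 of 7 2-oxidase genes were the match of some contig, against 0 of 5 20-oxidase genes and 0 of 4 3-oxidase genes. A further 6 contigs named for gibberellin in the UniRef column, but not in the Arabidopsis columns, are not among the 8. Contigs of the same match can divide reads of 1 gene between them, or can be alleles or paralogs. The table gives no contig lengths or sequences, so levels are compared between libraries and not between contigs.

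RNA came from floral nectaries of 7 sunflower lines and from leaf, with 3 libraries in each of 8 groups. The maintainer line ER has no nectar class. The interspecific crosses 434 and 467 were classed as high in nectar production, 452 and 456 as medium, and 412 and 441 as low. All plants grew in a greenhouse under 16 h light and 8 h dark at 23 °C. Each nectary library held about 50 nectaries from secreting florets of plants about 40 days old, taken 4 to 8 h after dawn and pooled over different plants, so p-values measure the spread between such pools. Leaf is labelled as line 434, whereas the series' design text describes leaf as taken from ER, and the comparison with leaf is given for both lines where that matters. A nectar class is 2 lines, and the class and the genotypes of those lines cannot be told apart.

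Values are the authors' upper-quartile-normalized read values, rounded to whole numbers. The spacing of low values gave an estimated 8.45 to 16.09 M reads per library (median 12.04), at 0.678 to 1.5 units per read. A level of 3 reads, the limit that a value of 0 allows, was 2.03 to 4.5 units, for counting error only. The 6 contigs matching the nectary genes SWEET9, CRC and MYB21 summed to 29180 to 246763 in nectary libraries, against 128 to 174 in leaf. The 11 contigs of 5 matched mesophyll genes summed to 107 to 1944 in nectary and 384622 to 618774 in leaf. In bulk tissue fewer cells of a type and less RNA per cell cannot be told apart. Replicate 3 of line 452 stood apart, with 288 contigs at 7 or below that reached 100 in the other 2 libraries of that line (at most 10 in any other library). Differences are of log2(value + 1) from limma with Benjamini-Hochberg adjustment over all contigs tested, and a contig was called at an adjusted p under 0.05. Of the 8 contigs, 7 had the mean of at least 10 needed for testing, and Helianthus39670 did not.

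The KAO pair was present in the nectaries of some lines and at or near 0 in those of others. Helianthus20665 had 395, 370 and 319 units in ER, 2, 3 and 0 in line 434, and 0, 0 and 0 in line 467. In the medium lines it had 309, 0 and 0 in line 452 and 0, 0 and 1 in line 456. The low lines held 1049, 879 and 879 units in line 412 and 591, 707 and 675 in line 441, while leaf held 32, 0 and 14. Every library of lines 412, 441 and ER was thus above every library of lines 434, 467 and 456 and of leaf, and line 452 was divided between a library at the level of ER and a pair listed at 0.

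Helianthus20666 followed the same division. It had 242, 218 and 210 units in ER, 5, 0 and 0 in line 434, 0 in each library of line 467, and 180, 0 and 0 in line 452. All libraries of line 456 were listed at 0, the low lines had 341, 439 and 461 units in line 412 and 369, 440 and 309 in line 441, and leaf had 7, 2 and 0. In the 10 libraries where both contigs reached 100, the ratio of Helianthus20665 to Helianthus20666 was 1.52 to 3.08, with a median of 1.71. Contig lengths are not known, so the ratio describes its spread between libraries and not which contig had the higher level. Lines 412 and 441 did not overlap for Helianthus20665 but overlapped for Helianthus20666, and both were above ER without overlap for each contig.

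**Figure D1:**
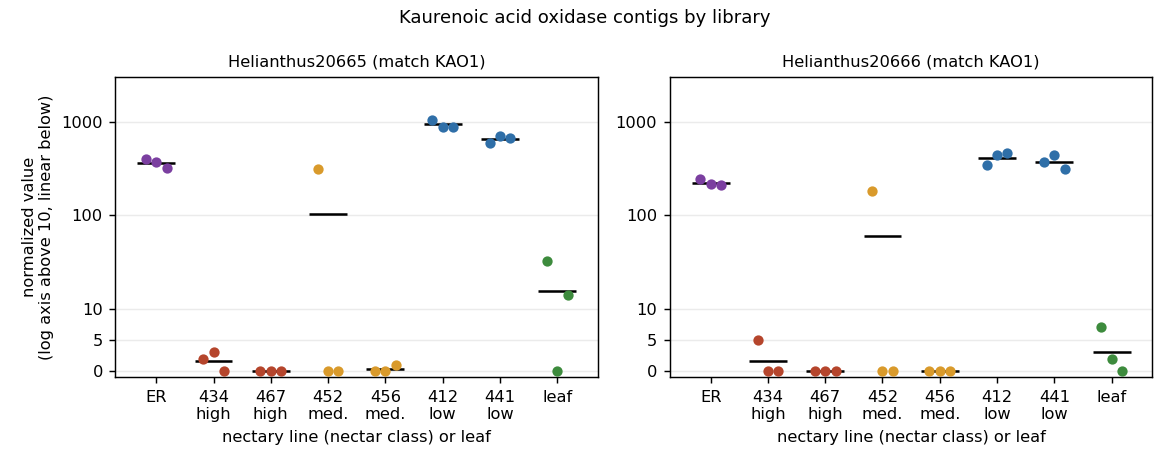
Normalized value of the KAO contigs Helianthus20665 (left) and Helianthus20666 (right) in each library, by nectary line with its nectar class and for leaf. The vertical axis is linear below 10 and logarithmic above, points are libraries and bars are the means of 3. Lines 412, 441 and ER lie at 210 or above in every library, lines 434, 467 and 456 at 5 or below, and line 452 has 1 library at 309 and 180 and 2 at 0.

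Both KAO contigs were lower in the high than in the low nectar lines. Helianthus20665 averaged 0.833 ± 1.33 units in high lines and 797 ± 169 in low lines (SD, n = 6 each), and Helianthus20666 averaged 0.833 ± 2.04 and 393 ± 62.1. The log2 differences were -9.02 (SE 0.97, limma adjusted p = 1.1e-06) and -8.18 (SE 0.91, limma adjusted p = 1.58e-06). With a group near 0 their size depends on the added constant, and with 5 in place of 1 they were -7.10 and -6.13. With the line as the unit, 2 against 2, the limma adjusted p was 0.0318 and 0.0371. The highest adjusted p over all alternatives was these same values. Of 38457 contigs, 31.2% were called between high and low lines, 12.3% higher and 18.9% lower, so a call alone is common in that comparison. The nectary-gene contigs summed to 60299 to 189274 in high lines and 39571 to 59000 in low lines, and to 180502 to 246763 in ER, where KAO was present. Within the sums SWEET9 was higher in high than in low lines (means 87454 and 19348), whereas the CRC contig Helianthus1659 was not (22593 and 24785). The part of these sums in the KAO difference was not tested.

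The medium lines were also lower than the low lines, with differences of -8.07 for Helianthus20665 (limma adjusted p = 8.24e-06) and -7.36 for Helianthus20666 (limma adjusted p = 1.1e-05), where 14.7% of contigs were called, 5.68% higher and 8.99% lower. The means were 51.7 ± 126 and 30 ± 73.5 units in medium lines against the low means above (SD, n = 6), and replicate 1 of line 452 made up nearly the whole of the medium values. Without it the differences were -9.45 and -8.61. With the line as the unit neither was called (limma adjusted p = 0.178 and 0.222). High against medium gave -0.95 (95% interval -3.00 to 1.10) and -0.82, with neither called.

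ER, which has no nectar class, held KAO values between those of the low lines and those of the other crosses. Against the 6 crosses ER was higher by 4.58 for Helianthus20665 (SE 1.05, limma adjusted p = 0.00335) and 4.38 for Helianthus20666 (SE 0.98, limma adjusted p = 0.00278), where 24.1% of contigs were called (10.4% higher and 13.7% lower). ER averaged 361 ± 38.7 and 223 ± 16.7 units (SD, n = 3), against 283 ± 391 and 141 ± 191 in the crosses (SD, n = 18), whose libraries lay on both sides of it. With some crosses near 0 the size of the log2 differences depends on the added constant. The p-values do not measure the spread between lines.

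For the KAO contigs nectaries of ER and of line 434 were set against the same leaf libraries. Nectaries of line 434 gave -1.79 for Helianthus20665 (95% interval -4.85 to 1.27) and -0.67 for Helianthus20666 (-3.32 to 1.99) against leaf, neither called (limma adjusted p = 0.298 and 0.669). Nectaries of ER gave 5.51 and 6.28 against the same leaf libraries (limma adjusted p = 0.00275 and 0.000249). The difference between the nectaries of ER and of line 434, in which leaf cancels, was 7.30 and 6.95 (limma adjusted p = 0.00108 and 0.000421). In all, 10 of the 21 nectary libraries were above every leaf library for each of the contigs.

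The pattern of the pair was looked for in the whole table, with limits chosen after the values were seen. Of 11112 contigs at 100 or above in every library of lines 412, 441 and ER, 9 were at 7 or below in every library of lines 434, 467 and 456. Of these 9, 3 had an Arabidopsis match, and 4 were at 100 or above in all 3 libraries of line 452. The KAO contigs were the 2 of the 9 that were high in replicate 1 of line 452 and at 7 or below in its replicates 2 and 3. That library held 42 contigs at 100 or above that were at 7 or below in the other 2 libraries of the line, against at most 6 in any other library. Of these 42, 24 were at 100 or above in every low library, 7 were at 7 or below in every high library and 12 in every library of line 456. The share of all contigs at each of these limits was not computed. Of all 42063 contigs, 11112 were at 100 or above in every library of lines 412, 441 and ER, so a high value in every low library is common. The part of what sets that library apart in its KAO values was not tested.

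Of the 4 contigs matching 2-oxidases, which inactivate gibberellins, the 3 that were tested were higher in nectary of line 434 than in leaf. Helianthus39671 (match GA2OX2) had 405, 393 and 359 units in nectaries of line 434, against 1, 4 and 4 in leaf, and all 21 nectary libraries (291 to 1641) were above every leaf library. Its log2 difference between line 434 and leaf was 6.71 (SE 0.45, limma adjusted p = 1.01e-10). Helianthus39670, of the same match, was at 0 to 13 units in nectary and listed at 0 in each leaf library, around or below the level of 3 reads in many libraries, and was not tested with the others. With no filter on low values its difference between line 434 and leaf was 0.86 (limma adjusted p = 0.306).

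The GA2OX1 contigs were higher in nectary too, by less. Helianthus10716 had 205, 227 and 185 units in nectaries of line 434 against 3, 8 and 16 in leaf, and it was above leaf in 21 of 21 nectary libraries. Helianthus10714 had 297, 338 and 340 units in line 434 against 54, 163 and 83 in leaf, with 20 of 21 nectary libraries above every leaf library. The exception was replicate 3 of ER at 144. The log2 differences were 4.60 (SE 0.75, limma adjusted p = 2.89e-05) and 1.84 (SE 0.52, limma adjusted p = 0.00485). Between line 434 and leaf 61.6% of 39981 contigs were called, 39.6% higher and 22% lower, and the median difference of all contigs was 0.48. Relative to that median the 3 oxidase contigs differed by 6.24, 4.12 and 1.36.

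**Figure D2:**
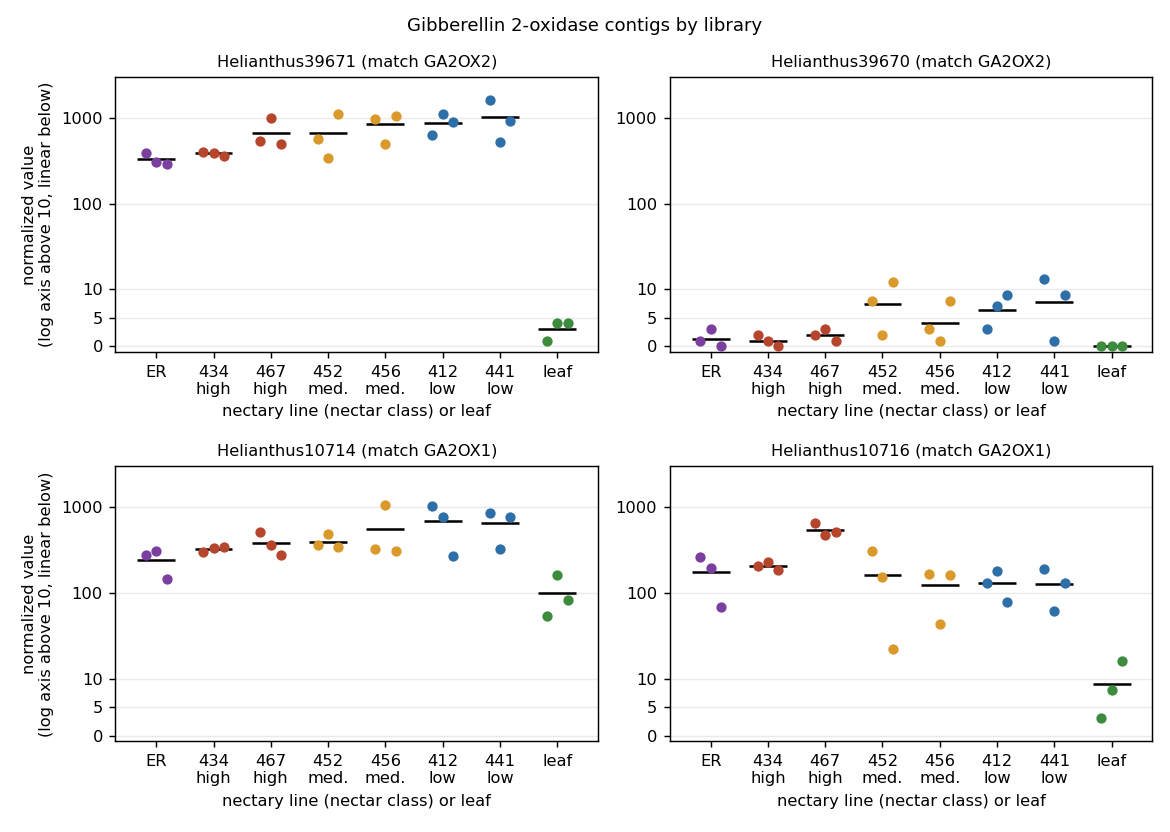
Normalized value of the 4 gibberellin 2-oxidase contigs in each library, by nectary line with its nectar class and for leaf. The vertical axis is linear below 10 and logarithmic above, points are libraries and bars are the means of 3. Helianthus39671 and Helianthus10716 are above leaf in every nectary library, and Helianthus39670 does not pass 13 anywhere.

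Among nectaries Helianthus39671 was lowest in ER and the high line 434. It had 391, 303 and 291 units in ER, 405, 393 and 359 in line 434, and 535, 991 and 496 in line 467. The medium lines held 567, 345 and 1106 in line 452 and 981, 493 and 1058 in line 456, and the low lines 631, 1102 and 909 in line 412 and 1641, 521 and 910 in line 441. Neighbouring lines in the order of means overlapped throughout, and in line 441 the replicates ran between 521 and 1641.

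High nectar lines averaged 530 ± 236 units of Helianthus39671 and low lines 952 ± 397 (SD, n = 6 each), with overlapping libraries. The pollen list was ANX1, ANX2 and VGD1, of which 2 were the match of a contig, and its contigs also summed to 680 to 696 in leaf. These pollen contigs summed to 1197 to 1728 in high lines and 1331 to 3529 in low lines. The mesophyll contigs summed to 107 to 674 and 541 to 980. Within that sum the RBCS1A contig Helianthus21872 averaged 98.2 units in high and 339 in low lines (525 in leaf). The LHCB6 contig Helianthus15248 averaged 27.7 and 67.3 (69790 in leaf). The RBCS1B contig Helianthus41497 went the other way, at 87.3 and 63.5 (285890 in leaf). The part of either list in the result was not tested. The log2 difference was -0.84 (95% interval -1.47 to -0.20, limma adjusted p = 0.0422). It was not called with the line as the unit (0.256), after median-ratio rescaling (0.0625), or in 9 of the 12 fits that left out 1 library. Those libraries were all 3 of line 434, replicates 1 and 3 of line 467, replicates 2 and 3 of line 412 and replicates 1 and 3 of line 441, with adjusted p up to 0.124. Over all alternatives the adjusted p ran between 0.000252 and 0.256. ER averaged 328 ± 54.6 units, against 747 ± 355 in the crosses (SD, n = 3 and 18), a difference of -1.05 (SE 0.33, limma adjusted p = 0.025), and without any 1 of the ER libraries this was not called (0.0501, 0.1 and 0.124).

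The GA2OX1 contigs differed in how they were spread over the lines. Helianthus10716 was highest in the high line 467, at 658, 480 and 509 units, above every other nectary library. It had 260, 194 and 68 units in ER, 205, 227 and 185 in line 434, 311, 153 and 22 in line 452, and 166, 43 and 160 in line 456. The low lines were at 132, 182 and 78 in line 412 and 190, 61 and 129 in line 441. High lines averaged 377 ± 198 units, medium lines 143 ± 104 and low lines 129 ± 52.5 (SD, n = 6 each).

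The high lines were higher than the medium lines by 1.68 for Helianthus10716 (SE 0.53, limma adjusted p = 0.0172), where 43.8% of contigs were called (23.8% higher and 20% lower), and than the low lines by 1.48 (95% interval 0.37 to 2.59, limma adjusted p = 0.0397). With the line as the unit the limma adjusted p was 0.106 and 0.218. The call against low lines was lost in 10 of 12 fits without 1 library, namely those without any library of lines 434 and 467, replicates 1 and 3 of line 412 or replicates 2 and 3 of line 441 (adjusted p up to 0.1). Lines 434 and 467 did not overlap, yet in the fit of all nectary libraries they differed by -1.40 with a limma adjusted p of 0.336, and in a fit of those 6 libraries alone the limma adjusted p was 0.000342 (range over alternatives 0.000342 to 0.573).

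Helianthus10714 had 277, 308 and 144 units in ER, 297, 338 and 340 in line 434, and 515, 365 and 280 in line 467. It had 359, 491 and 343 in line 452, 326, 1063 and 308 in line 456, 1045, 766 and 269 in line 412, and 853, 327 and 765 in line 441. Each pair of neighbours in the order of means overlapped, and the contig was not called between nectar classes or in ER against the crosses. High minus low was -0.78 (95% interval -1.53 to -0.02, limma adjusted p = 0.112), and the sum of the GA2OX1 contigs differed by -0.04 (limma adjusted p = 0.931), with the separate contigs opposite in sign. The sum of the GA2OX2 contigs differed by -0.84 (limma adjusted p = 0.0347).

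Of the GASA peptide genes, Helianthus432 (match GASA14, a regulator of leaf expansion in Arabidopsis) was high in nectary and nearly unread in leaf. It had 527, 466 and 550 units in nectaries of line 434 against 5, 1 and 1 in leaf, a log2 difference of 7.48 (SE 0.34, limma adjusted p = 3.5e-13). All 21 nectary libraries (244 to 1008) were above leaf. Helianthus38138 (match GASA6) went the other way, with 38, 70 and 56 units in nectaries of line 434 against 551, 248 and 65 in leaf. The difference was -1.95 (limma adjusted p = 0.00908), 16 of 21 nectary libraries were below every leaf library, and the leaf libraries themselves ran between 65 and 551. Without replicate 1 of leaf it was -1.25 and not called (limma adjusted p = 0.0798, range over alternatives 0.000164 to 0.0798).

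**Figure D3:**
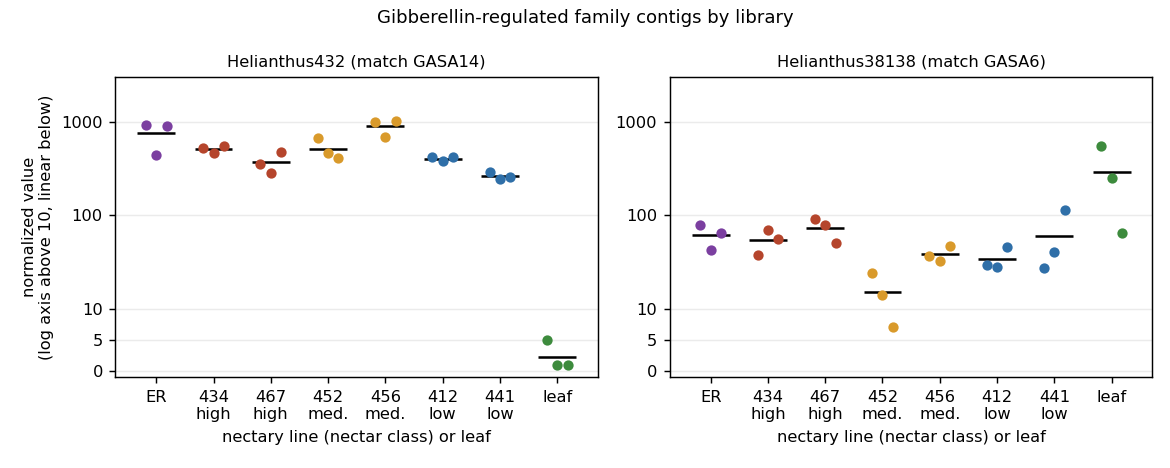
Normalized value of the contigs matching GASA14 (left) and GASA6 (right) in each library, by nectary line with its nectar class and for leaf. The vertical axis is linear below 10 and logarithmic above, points are libraries and bars are the means of 3. Helianthus432 is at 244 to 1008 in nectary and 1 to 5 in leaf, and Helianthus38138 is highest in 2 of the leaf libraries.

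Across nectaries Helianthus432 had 923, 439 and 898 units in ER, 351, 286 and 475 in line 467, 667, 468 and 405 in line 452 and 1000, 690 and 1008 in line 456. It had 417, 379 and 415 in line 412 and 293, 244 and 259 in line 441. The medium lines, at 706 ± 256 units, were above the low lines at 335 ± 78.6 (SD, n = 6 each), by 1.03 (SE 0.18, limma adjusted p = 0.000612), and the high lines, at 443 ± 103, were below the medium lines (difference -0.63, limma adjusted p = 0.0121). High against low gave 0.40 (95% interval 0.01 to 0.79, limma adjusted p = 0.111). With the line as the unit neither of the called differences was called (limma adjusted p = 0.481 and 0.333), and the medium lines differed from each other, 452 being below 456 (difference -0.82, limma adjusted p = 0.0494). That last call was lost after median-ratio rescaling, in the fit of the compared groups alone, and without replicate 2 or 3 of line 452 or 1 or 3 of line 456 (limma adjusted p 0.0154 to 0.238 over alternatives). The pollen contigs summed to 2040 to 4679 in medium lines, 1197 to 1728 in high lines and 1331 to 3529 in low lines. Within each medium line, line 467 and ER, the library with the highest pollen sum had the lowest value of Helianthus432. In the medium lines these were replicate 2 of line 456 (4679 and 690) and replicate 3 of line 452 (2824 and 405). In lines 434, 412 and 441 this did not hold. Replicate 3 of line 434 had the highest pollen sum and the highest value of that line (1443 and 550). The part of the pollen contigs in the result was not tested.

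ER was above the crosses for Helianthus432, at 753 ± 273 units against 494 ± 224 (SD, n = 3 and 18), by 0.65 (limma adjusted p = 0.0229). Without replicate 1 or replicate 3 of ER that was not called (limma adjusted p = 0.2 and 0.197). The nectary-gene contigs summed to 180502 to 246763 in ER, against 29180 to 189274 in the crosses, and pollen contigs to 1053 to 1306 in ER, against 1197 to 4679 in the crosses. Their part in the result was not tested.

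Helianthus38138 ran between 7 and 115 units in nectaries and was lowest in line 452, at 24, 14 and 7 units, against 37, 32 and 47 in line 456. It had 78, 43 and 64 units in ER, 91, 79 and 50 in line 467, 29, 28 and 46 in line 412 and 27, 40 and 115 in line 441. High lines averaged 64 ± 19.6 units, above medium lines at 26.8 ± 14.9 (SD, n = 6 each), by 1.39 (SE 0.34, limma adjusted p = 0.00414), but with the line as the unit the limma adjusted p was 0.178. Medium against low was -0.82 and not called (limma adjusted p = 0.122), and without replicate 1 of line 452 it was -1.02 (limma adjusted p = 0.0422).

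**Figure D4:**
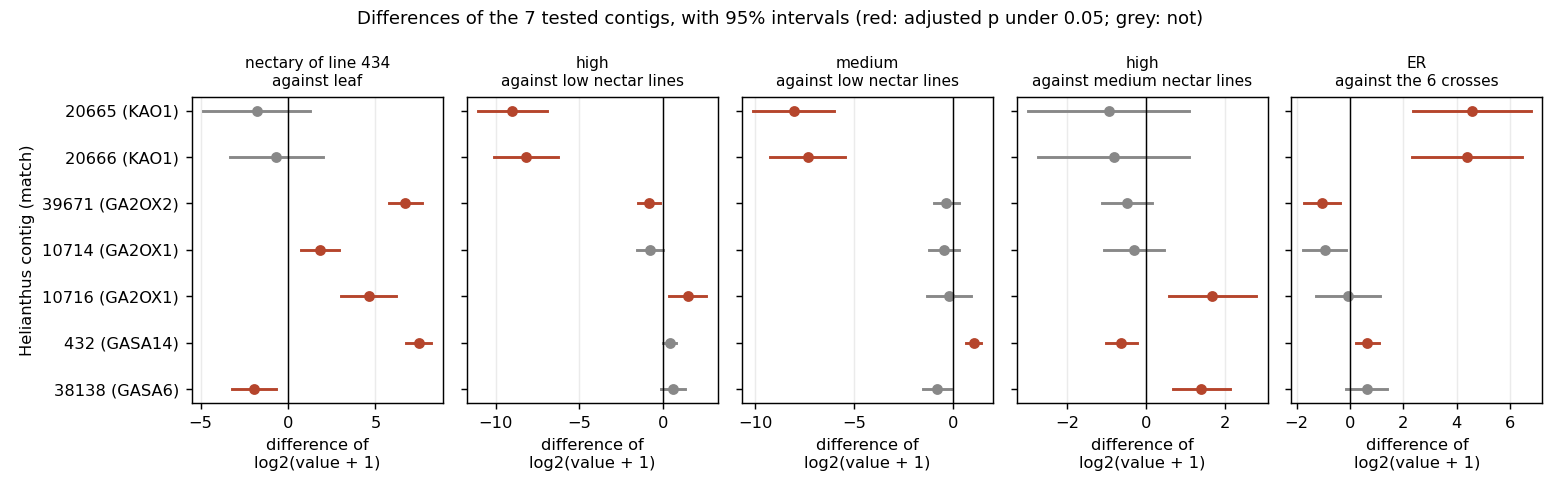
Differences of log2(value + 1) with 95% intervals for the 7 tested contigs in 5 comparisons, 1 panel each with its own axis range. Red points were called by limma at an adjusted p under 0.05 and grey points were not. The KAO contigs lie far below 0 in high against low and medium against low and above 0 in ER against the crosses, and the GA2OX and GASA14 contigs lie above 0 in nectary of line 434 against leaf.

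Counted over the 7 tested contigs, with the contigs near 0 in some groups able to pass the filter through the groups where they are high, the list reads as follows. Between line 434 and leaf 4 were called higher and 1 lower, where 61.6% of all contigs were called (39.6% higher and 22% lower), with a median difference of 1.84 against 0.48 for all contigs. The share called was thus near that of all contigs. Between high and low lines 1 was higher and 3 were lower, where 31.2% of all contigs were called (median -0.78, against -0.01 for all contigs). Medium against low gave 1 higher and 2 lower, where 14.7% were called (median -0.47, all contigs -0.15), and high against medium 2 higher and 1 lower, where 43.8% were called (median -0.48, all contigs 0.11). ER against the crosses gave 3 higher and 1 lower, where 24.1% were called (median 0.62, all contigs 0.09). These are counts of few contigs, of which the KAO pair and the GA2OX1 pair share a match.

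Lines of the same class were also compared, and the counts of calls were near the shares over all contigs. Line 434 against 467 gave 0 calls among the 7 contigs, 0 at an unadjusted p under 0.05, where limma called 10.4% of contigs (5.56% higher and 4.83% lower). Sample weights and a fit of those groups alone called 1 each. Line 452 against 456 gave 1, the GASA14 contig, where 11.6% were called (5.62% higher and 6.01% lower). Line 412 against 441 gave 0 where 5.98% were called (4.34% higher and 1.64% lower). There 1 contig had an unadjusted p under 0.05 in limma (Helianthus432, difference 0.61, adjusted p = 0.266), and it was called in the fit of those groups alone (adjusted p = 0.0308). An F test over the 7 lines called 50.6% of all contigs and 5 of the 7. These were Helianthus20665 (limma adjusted p = 4.44e-06), Helianthus20666 (5.54e-06), Helianthus432 (0.000346), Helianthus38138 (0.00988) and Helianthus39671 (0.0331), of which the last was lost in 10 of 21 fits without 1 library (any of ER or line 434, replicate 1 of line 456, replicates 2 and 3 of line 412, or replicate 3 of line 441). The GA2OX1 contigs were not called (0.193 for Helianthus10714 and 0.0903 for Helianthus10716). The median range over lines was 2.32 for the 7 contigs and 1.45 for all contigs, on the log2 scale.

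The contigs whose levels ran most like those of the more abundant 2-oxidases were looked for among the 11702 annotated contigs whose mean reached 100 in the 21 nectary libraries. Nearest to Helianthus39671 were Helianthus4993 and Helianthus2602, both matching AT2G30620, at a Pearson r of 0.88 and 0.86. Helianthus456 (a protein phosphatase 2A regulatory B subunit) had 0.88, Helianthus21446 (a histone superfamily protein) 0.86 and Helianthus16966 (PDI-like 5-1) 0.84. Nearest to Helianthus10714, with lower r, were Helianthus7324 (a zinc finger protein, 0.77), Helianthus1979 (a DnaJ-domain chaperone, 0.77), Helianthus36125 (a myb-like regulator, 0.77), Helianthus37486 (serine palmitoyltransferase 1, 0.76) and Helianthus20161 (a homeodomain-like protein, 0.76). These values are over the same 21 libraries and 7 lines for every contig, were the highest of many, and are given as a description.

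The rest of the pathway was described from 57 Arabidopsis genes, of which 5 were the matches above and 11 others matched a further 34 contigs. Between line 434 and leaf 12 of the 34 were higher and 11 lower (median -0.15, all contigs 0.48), near the 61.6% of all contigs called. Between high and low lines 4 were higher and 8 lower (median -0.18, all contigs -0.01), near the 31.2% called overall. The counts by role below are of 1 to 9 contigs each and are read against the same shares. Upstream of KAO, 0 of 6 early-synthesis contigs were higher and 2 were lower in line 434 than in leaf. The kaurene oxidase contig Helianthus4189 (match GA3) averaged 114 ± 19 units in nectaries of line 434 and 659 ± 74.5 in leaf (SD, n = 3 each), a difference of -2.53 (limma adjusted p = 7.57e-08). Between high and low lines it was 208 ± 106 and 225 ± 37.9 units (SD, n = 6 each) and not called.

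Among receptors 2 of 6 contigs were higher in line 434 than in leaf and 1 was lower. Helianthus7859 (match GID1B) averaged 679 ± 44.2 units in nectaries of line 434 and 283 ± 80.3 in leaf, and Helianthus2778 (match GID1C) averaged 434 ± 28.9 and 1258 ± 125 (SD, n = 3 each), so the named contigs of the 2 receptor genes were opposite in direction, at 1.30 (limma adjusted p = 0.00656) and -1.53 (1.12e-05). Helianthus2778 was also lower in high than in low lines, at 470 ± 65.6 against 751 ± 122 units (SD, n = 6 each), a difference of -0.67 (limma adjusted p = 0.00587; 0.192 with the line as the unit). After median-ratio rescaling the GID1B difference from leaf was 0.83 and not called (limma adjusted p = 0.103).

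Of 8 DELLA contigs, 4 were higher and 3 lower in line 434 than in leaf (61.6% of all contigs called), and 1 was higher and 3 were lower in high than in low lines (31.2% called). Helianthus8773 (match RGA) averaged 1472 ± 70.5 units in nectaries of line 434 and 271 ± 49.0 in leaf (SD, n = 3 each), a difference of 2.45 (limma adjusted p = 7.38e-05), and in high against low lines a difference of 0.75 was not called (limma adjusted p = 0.0909), though the fit of those groups alone called it (0.000251). Helianthus8774 (match GAI) averaged 1389 ± 79.7 and 896 ± 175 units (0.65, limma adjusted p = 0.00832), and 1445 ± 106 in high lines against 1111 ± 134 in low lines (0.38, limma adjusted p = 0.0434). The call between classes was lost in 10 of 12 fits without 1 library, those without any library of lines 434 and 467, replicates 1 and 2 of line 412 or replicates 1 and 3 of line 441, and with the line as the unit (limma adjusted p = 0.373). The call against leaf was lost after median-ratio rescaling (0.18, limma adjusted p = 0.344).

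In signalling, 5 of 9 contigs were higher and 1 was lower in line 434 than in leaf, and 0 and 2 in high than in low lines. Helianthus12254 (match SLY1, the F-box protein that marks DELLA proteins for breakdown) averaged 262 ± 56.1 units in nectaries of line 434 and 149 ± 50.7 in leaf (SD, n = 3 each), a difference of 0.85 (limma adjusted p = 0.00451). It was not called after median-ratio rescaling or with ER in place of line 434. Helianthus38921 (match SCL3, a GRAS protein that promotes the response in Arabidopsis) averaged 365 ± 47.2 and 143 ± 25.8, by 1.36 (limma adjusted p = 0.00148). Helianthus13904 (match SPY, which restrains the response) was lower in high than in low lines, at 147 ± 13.1 against 199 ± 31.5 units (SD, n = 6 each), a difference of -0.43 (limma adjusted p = 0.0193), and that call was lost with the line as the unit, after median-ratio rescaling, and without replicate 3 of line 434 or of line 441.

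The largest differences in the list were outside synthesis and signalling proper. All 4 transport contigs were lower in line 434 than in leaf. Helianthus16803 (match NPF3.1, a gibberellin transporter in Arabidopsis) averaged 1502 ± 664 units in nectaries of line 434 and 11130 ± 384 in leaf (SD, n = 3 each), a difference of -2.98 (limma adjusted p = 2.11e-08). In high against low lines its difference was opposite in sign to that of KAO, at 926 to 4658 units in high lines and 30 to 69 in low lines, with no overlap, a difference of 5.63 (limma adjusted p = 9.71e-13; 0.0529 with the line as the unit). ER had 730, 494 and 976 units, line 452 had 32, 31 and 29, and line 456 had 105, 95 and 134. ER therefore had KAO and this contig both present, and line 456 had both low. The nectary-gene contigs summed to 60299 to 189274 in high lines, 29180 to 100221 in medium lines, 39571 to 59000 in low lines and 180502 to 246763 in ER. Within that sum the CRC contig Helianthus1659 averaged 22593, 23764, 24785 and 26611 units in those groups. The mesophyll contigs summed to 107 to 674 in high lines, 453 to 1944 in medium lines, 541 to 980 in low lines and 338 to 617 in ER. Among them the RBCS1A contig Helianthus21872 averaged 98.2, 273, 339 and 103 units in those groups. The RBCS1B contig Helianthus41497 averaged 87.3, 216, 63.5 and 54. The part of either in the result was not tested.

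Helianthus41712 (match GASA1) averaged 10040 ± 741 units in nectaries of line 434 and 7.33 ± 4.04 in leaf (SD, n = 3 each), a difference of 10.37 (limma adjusted p = 2.46e-11). It averaged 7512 ± 3015 units in high lines and 1915 ± 539 in low lines (SD, n = 6 each), a difference of 1.89 (limma adjusted p = 0.00341; 0.274 with the line as the unit). The sum of the nectary-gene contigs moved the same way, at 60299 to 189274 in high lines and 39571 to 59000 in low lines. Not every contig of that sum did. SWEET9 averaged 87454 units in high lines and 19348 in low lines, and the MYB21 contig Helianthus32958 10779 and 3582. Helianthus32957 (match MYB21) was also higher in high lines, at 1291 against 271 units. High and low libraries overlapped for the CRC contig Helianthus36845, at 187 ± 79.1 and 176 ± 47.7 units (SD, n = 6 each). The CRC contig Helianthus1659 averaged 22593 and 24785, and the MYB21 contig Helianthus41482 1039 and 1107. The part of these contigs in the result was not tested.

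**Figure D5:**
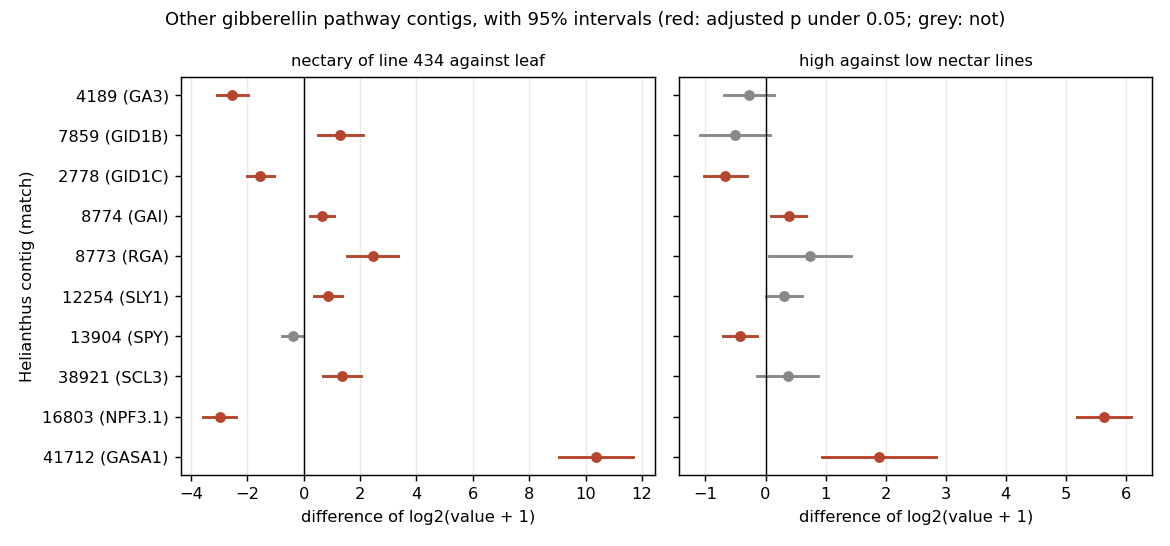
Differences of log2(value + 1) with 95% intervals for 10 other gibberellin pathway contigs, in nectary of line 434 against leaf (left) and in high against low nectar lines (right), on separate axis ranges. Red points were called by limma at an adjusted p under 0.05 and grey points were not. The GASA1 contig lies at 10.37 on the left and the NPF3.1 contig at 5.63 on the right, where the other contigs lie between -0.67 and 1.89.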

How the data were processed

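RNA of sunflower floral nectaries and leaf was sequenced as 50-base paired ends from TruSeq RNA v2 libraries, per the labels' protocols. Deposited for each contig and library is an expression score. The authors scaled it to the upper quartile, per the file headers, and its entries are whole numbers. The header of replicate 3 of ER does not name the normalization, and its upper quartile was 201.25 where the other libraries had 201. How reads were assembled, aligned and counted is not given in the sources used here. Group means and SDs, 16 columns in all, were left aside.

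The score is not a count, so no count model was used. After log2(value + 1), every contig whose mean in the fitted libraries reached 10 was tested. The linear model had a mean for each group and empirical Bayes variances with a trend (limma 3.58.1, R 4.3.3). Leaf was compared in a fit of all 24 libraries, nectaries in a fit of the 21 nectary libraries, and a class is the mean of its 2 line means. P-values were adjusted by Benjamini-Hochberg over all contigs tested. The procedure was tested on simulated data. The spacing of low values gave what 1 read was worth. Tables and figures were made with Python 3.11.15, numpy 2.4.6, pandas 2.3.3 and matplotlib 3.10.9.

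The contigs, lists and tests were chosen with earlier results of these data known. All contigs matching GA2OX1 or GA2OX2 were named, and others where a group mean reached 100. From the pathway list, the most abundant contig of a match was named where it was called against leaf or between high and low lines, or was a receptor or DELLA. The 5 nearest contigs were sought for the 2 most abundant oxidases. Marker lists for pollen, tapetum and ovule were also summed. Alternatives were no filter, a filter at a mean of 50, an added constant of 5, median-ratio rescaling, sample weights, summed contigs of a match, the compared groups alone, the line as the unit, the replicate number as a block, ER or the mean of 7 lines in place of line 434, replicate 3 of line 452 left out, and each compared library left out in turn. Same-numbered libraries of different groups correlated between -0.287 and 0.26 in their deviations from the group means (84 pairs). Those of different number correlated between -0.361 and 0.409 (168 pairs), so no pairing by number was seen.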

Additional observations from a re-analysis of the deposited data

Results flagged for a closer look

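Of 24 sets of 6 libraries of a nectar class, 7 held a library far from the other 5, where chance gives about 1 in 20 for normally distributed values of a single group. The sets pool 2 lines each, and some are listed at 0 in nearly every library. For Helianthus20665 replicate 1 of line 452 had 309 units, against 0 to 1 in the other medium libraries, and for Helianthus20666 it had 180, against 0 in each. For Helianthus20666 replicate 1 of line 434 had 5 units where the other high libraries were listed at 0, a gap of a few reads. For Helianthus10714 replicate 1 of line 467 had 515 units, against 280 to 365 in the other high libraries, and replicate 2 of line 456 had 1063, against 308 to 491 in the other medium libraries. For Helianthus39671 replicate 2 of line 467 had 991 units, against 359 to 535 in the other high libraries. For Helianthus38138 replicate 3 of line 441 had 115 units, against 27 to 46 in the other low libraries.

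Nectaries of ER and of line 434 differed for the KAO contigs. ER exceeded line 434 by 7.30 on the log2 scale for Helianthus20665 (limma adjusted p = 0.00108) and by 6.95 for Helianthus20666 (limma adjusted p = 0.000421). Both lines were set against the same 3 leaf libraries, so leaf cancels in this difference. It cannot show whether the difference between nectary and leaf varies with the line.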

How the results depend on the processing

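Of the fits of single contigs named in the text under other settings, 1428 kept direction and call, 73 lost the call, 30 gained one and 31 changed sign. Of the counts of called contigs 157 stayed within 1.5 times, counts of 0 that stayed at 0 among them, and 24 did not. Among the 7 contigs, high against low called 4, and 7 with sample weights, 2 with contigs of a match summed (of 5 genes), 2 with the line as the unit, and 2 to 4 with 1 library left out. With the line as the unit medium against low and high against medium called 0 in place of 3 each, with 2 lines on each side as in high against low. ER against the crosses called 4, and 2 to 5 with 1 library left out. Line 434 against 467 called 0, and 1 with sample weights or with the compared groups alone. Line 452 against 456 called 1, then 2 with sample weights, 0 after median-ratio rescaling, with summed contigs or with the compared groups alone, and 0 to 2 with 1 library left out. Line 412 against 441 called 0, and 1 with the compared groups alone. With 1 library left out, the lone pair of a line still shares the spread of all groups. The cause of these shifts was not tested.

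Signs changed for the KAO contigs against leaf with ER (5.51 for Helianthus20665 and 6.28 for Helianthus20666) or the mean of 7 lines (1.59 and 2.53) in place of line 434. The others were not called under either setting: with sample weights, Helianthus10716 in medium against low (0.25), 452 against 456 (0.27) and 412 against 441 (-0.13) and Helianthus10714 in 452 against 456 (0.34) and 412 against 441 (-0.34), and after median-ratio rescaling Helianthus10716 in 452 against 456 (0.036). With 1 library left out, ranges crossed 0 against leaf for Helianthus20666 (-1.53 to 0.069), in medium against low for Helianthus10716 (-0.59 to 0.35), in high against medium for Helianthus20665 (-1.64 to 0.43) and Helianthus20666 (-1.44 to 0.43), and in ER against the crosses for Helianthus10716 (-0.48 to 0.48). They also did in 434 against 467 for Helianthus10714 (-0.42 to 0.021), in 452 against 456 for Helianthus20665 (-0.33 to 3.8), Helianthus10716 (-0.83 to 1.05) and Helianthus10714 (-0.58 to 0.31), and in 412 against 441 for Helianthus10714 (-0.43 to 0.58), Helianthus39671 (-0.51 to 0.32), Helianthus10716 (-0.34 to 0.47) and Helianthus38138 (-1.0 to 0.024). Rescaling moved the share of calls above leaf in all contigs to 48.7%, against 64.4% (11618 higher and 12248 lower, against 15850 and 8778), and left the directions of the 7 contigs against leaf as they were.

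With the replicate number as a block the counts of called contigs among the 7 were 5 against leaf, 4 in high against low, 3 in medium against low, 3 in high against medium, 4 in ER against the crosses, 0, 1 and 0 within classes and 5 over the lines, as without it. Of 83 single results 1 call changed, GAI in high against low (limma adjusted p = 0.0556). Not every library correlated best with its own number (10 of 24 did).

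Calls over all contigs moved by more than 1.5 times as follows. High against low called 11983, and 19905 with sample weights, 18292 with the compared groups alone and 300 with the line as the unit. Medium against low called 5642, and 3421 at a mean of at least 50, 8813 with weights and 4 with the line as the unit. High against medium called 16829, and 11074 alone and 605 by line. ER against the crosses called 9253, and 14552 with weights and 5965 without ER replicate 3. Line 434 against 467 called 3996, and 2432 at a mean of at least 50, 7890 with weights and 6207 alone. Line 452 against 456 called 4473, and 2872, 7203 and 1327 under those settings. Line 412 against 441 called 2298, and 1360, 5740 and 3776, and 3655 without line 452 replicate 3. The filter at a mean of 50 also left fewer contigs to test, 24237 in place of 38457. With it the share called was 14.1% against 14.7% in medium against low and 10% against 10.4% in 434 against 467. That share was 11.8% against 11.6% in 452 against 456 and 5.61% against 5.98% in 412 against 441. The F test called 19452, and 29357 with weights. Summing contigs of a match left at most 10005 genes to test and called 415 to 7230. Values of a few reads, such as those of Helianthus39670 or KAO near 0, cannot show small differences. Without the filter Helianthus39670 differed by -1.55 in high against low (limma adjusted p = 0.0368).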

Other observations

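Of the 3 contigs matching kaurene synthase (GA2), the enzyme upstream of both P450 steps, 1 was chosen for its spread over the lines after the values were seen, and its values are a description. Helianthus27910 had 167, 142 and 120 units in ER, 80, 82 and 107 in line 434, 268, 294 and 226 in line 467, 177, 255 and 595 in line 452, 6, 19 and 12 in line 456, 661, 584 and 480 in line 412, and 77, 81 and 118 in line 441. Leaf had 84, 123 and 91. The low lines 412 and 441 did not overlap, nor did the medium lines. The other 2 contigs were lower and more even, with line means of 28.7 to 58.3 units for Helianthus25401 and 25.3 to 58.7 for Helianthus25402, against 90.7 ± 11.4 and 146 ± 22.6 in leaf (SD, n = 3).

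A second kaurene oxidase contig, Helianthus4188 (match GA3), was read mainly in 1 line. It had 91, 78 and 96 units in line 467, against 0 to 5 in the other nectary libraries and 2, 8 and 3 in leaf. This contig too was chosen after its values were seen.

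Of the marker lists, ovule contigs summed to 108 to 420 in nectary libraries and 2349 to 3008 in leaf, pollen contigs to 1053 to 4679 and 680 to 696, and the 2 tapetum genes were the match of 0 contigs.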
